A study of Mus musculus with 2 samples.

Results

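In whole brains of mouse embryos, 355 transcript models built from reads alone passed a minimum level outside annotated genes of their own strand. They were 4.93% of the 7207 such models that passed the minimum. At any level, 58482 of all 159239 models (36.7%) overlapped no same-strand gene. Of the 355, 260 lay between genes while 95 lay opposite a gene on the other strand. Each of the 2 libraries is polyadenylated, rRNA-depleted RNA longer than 200 bases from E14.5 whole brain of the C57BL/6J strain, taken from littermates of mixed sex, with no treatment or genetic change named in the labels. Both libraries form 1 group, so the study holds no contrast between conditions. The labels number them as biological replicates 1 and 2 and give both the same donor record, without saying which animals each library holds. The models were selected on their measured values: both deposited RPKM values, a read count scaled by model length and library size, had to be 0.5 or more, and the model had to overlap no same-strand gene interval of Ensembl 65 on mm9. Their levels are therefore given as a description, with no test.

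A transcript assembler such as Cufflinks joins overlapping alignments into blocks and links blocks through spliced reads, so its models need no annotation. Outside annotated genes, such models can trace long noncoding RNAs, RNAs that run in the opposite direction through a gene, longer ends of known genes, or copies of genes elsewhere in the genome. In developing brain, long noncoding RNAs are often spliced, low in level, and start close to the promoters of genes for transcription factors. Antisense RNAs share their locus with a coding gene but are read from the other strand, so only libraries that keep the strand, as these did per the labels, can separate them.

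The depth was 107938353 expected counts for replicate 1 and 101105391 for replicate 2, and the junction columns summed to 52704888 and 47694368 spliced reads. Neuronal markers (Tubb3, Dcx, Stmn2, Map2 and Gap43) summed to 4421 and 4829 TPM in replicates 1 and 2 and radial glial markers to 1951 and 1802 TPM, with all 10 of these genes at 1 TPM or more in both replicates. Markers of blood (Hba-a1, Hbb-bt and Alas2) summed to 2804 and 3479 TPM, of meninges and bone to 89.2 and 222 TPM, and of epidermis to 69.9 and 69.9 TPM. The epidermal genes differed in direction, with Krt5 at 25.5 and 37.8, Krt14 at 18.9 and 27.9 and Krtdap at 25.5 and 4.22 TPM. The bone gene Ibsp stood at 0.17 and 20.3 TPM. Intermediate progenitor markers (Eomes, Neurog2 and Btg2) summed to 158 and 68.8 TPM. The part of such tissue differences in the levels of the models was not tested. The models' pair of values is named first and second here, because the file does not tie them to replicate numbers. For annotated genes, the ratio of second to first RPKM was compared with the ratio of replicate 2 to replicate 1 in TPM. Across 9528 genes at 1 or more in both builds, the Spearman correlation was -0.90, so their second value must not be read as replicate 2. The models' values were deposited apart from those of the genes, and whether both follow the same order was not tested. Neither value of a model is therefore assigned to a replicate. Where a model is set against a gene value by value, the pairing is the deposited order. The genes of that comparison are not independent, and both tables come from the same RNA. Over those genes the TPM was a median of 8.59 times the RPKM, so levels on these scales are given side by side and not compared.

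Of the 54 models with an intron of 50 bases or more, 6 carried introns whose lengths recur in a later annotation, GENCODE vM21 on GRCm38, on the same chromosome and strand and among the same neighbouring genes. The match uses lengths only, and no coordinate was carried between builds. Of the matched genes, Gm1976 was already among the Ensembl 65 genes, at an interval that the model does not overlap on its strand, and the others were not. The joined exon ends of 3 of those annotated genes are shown because they are the sequence evidence closest to the models. CUFF.74333 matched Tmem147os, an annotated antisense transcript at the gene of the membrane protein Tmem147, by 3 of its 5 introns. CUFF.169577 matched Gm1976, a processed transcript, by 2 of 4 introns, and CUFF.88455 matched Gm3365, an unprocessed pseudogene, by 4 of 6. Each line gives 25 bases of the exon before the intron in lower case and 25 bases of the exon after it in capitals, read 5′ to 3′ from GENCODE vM21 transcripts.
Tmem147os, intron chr7:30729855-30732413 on the plus strand: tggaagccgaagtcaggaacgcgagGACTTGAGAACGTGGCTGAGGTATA
Tmem147os, intron chr7:30732762-30734703 on the plus strand: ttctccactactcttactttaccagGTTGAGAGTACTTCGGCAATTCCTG
Tmem147os, intron chr7:30734769-30735815 on the plus strand: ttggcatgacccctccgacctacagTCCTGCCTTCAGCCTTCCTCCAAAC
Gm1976, intron chr17:94820397-94834691 on the minus strand: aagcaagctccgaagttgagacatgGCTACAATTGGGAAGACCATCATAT
Gm1976, intron chr17:94818945-94820335 on the minus strand: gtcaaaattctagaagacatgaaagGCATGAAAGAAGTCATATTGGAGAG
Gm3365, intron chr8:69576200-69585028 on the minus strand: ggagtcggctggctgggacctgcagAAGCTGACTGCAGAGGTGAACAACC
Gm3365, intron chr8:69570834-69575799 on the minus strand: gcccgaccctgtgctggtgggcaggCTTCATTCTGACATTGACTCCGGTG

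Promoters are shown for 2 genes: Selenoi, an ethanolamine phosphotransferase gene whose start lies 143 bases from a model read in the other direction, and D430019H16Rik, a protein-coding gene that CUFF.130008 matched by intron length. Each is the 250 bases before the RefSeq start on GRCm38.p6, on the gene's strand, with capitals marking the GC box (GGGCGG), the CCAAT box, the TATA box (TATAAA) and the E-box (CACGTG) on either strand.
Selenoi promoter, chr5:30232331-30232580, plus strand: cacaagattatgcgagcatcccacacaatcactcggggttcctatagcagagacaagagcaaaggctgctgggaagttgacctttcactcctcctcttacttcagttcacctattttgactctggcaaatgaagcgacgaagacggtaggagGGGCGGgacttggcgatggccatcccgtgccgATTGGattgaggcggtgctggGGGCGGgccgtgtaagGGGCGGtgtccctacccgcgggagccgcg
D430019H16Rik promoter, chr12:105453606-105453855, plus strand: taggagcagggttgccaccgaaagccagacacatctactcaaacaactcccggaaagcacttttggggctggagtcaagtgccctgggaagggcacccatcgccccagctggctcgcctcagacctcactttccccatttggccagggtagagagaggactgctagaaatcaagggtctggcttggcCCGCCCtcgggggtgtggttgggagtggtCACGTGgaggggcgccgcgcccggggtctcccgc
The Selenoi window held the GC box 3 times and the CCAAT box once, and the D430019H16Rik window held the GC box once and the E-box once. None of these motifs overlapped another. Of 32851 promoter windows of this length in the table, 32.7% held the GC box, 33.8% the CCAAT box, 12.4% the TATA box and 6.02% the E-box. A match is a description of letters and not a bound site.

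Models outside genes were short and mostly unspliced. The median span was 449 bases, against 18356 bases for the 6852 models at the same minimum that overlapped a same-strand gene. Of the 355, 218 were a single block, 83 had only gaps under 50 bases, and 54 (15.2%) had an intron of 50 bases or more, against 76.1% of the models on genes. Antisense and intergenic models were alike in span, with medians of 485 and 438.5 bases, and 12 of 95 antisense and 42 of 260 intergenic models had an intron. These differences describe sets that the rule and the annotation define, and no test was made of them.

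The number of exons the deposited file lists overstated splicing. It lists 2 or more exons for 137 of the 355 models (38.6%), but 710 of the 834 gaps between those exons (85.1%) were 1 to 5 bases long and 424 were 1 base. Gaps were also short in models on genes, where 73.4% of 256250 were 1 to 5 bases. The share of models changed less there. On genes 79.9% listed 2 or more exons and 76.1% had an intron, against 38.6% and 15.2% outside genes. CUFF.130008 is listed with 100 exons and had 1 gap of 50 bases or more, and CUFF.81028, a block of 1908 bases on chromosome 7, is listed with 45 exons and had none. Of the 736 gaps under 50 bases in models outside genes, 3 were in the junction file. The plot of gap lengths has its main peak at 1 to 5 bases and a second, lower rise from 101 to 10000 bases in both sets.

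**Figure D1:**
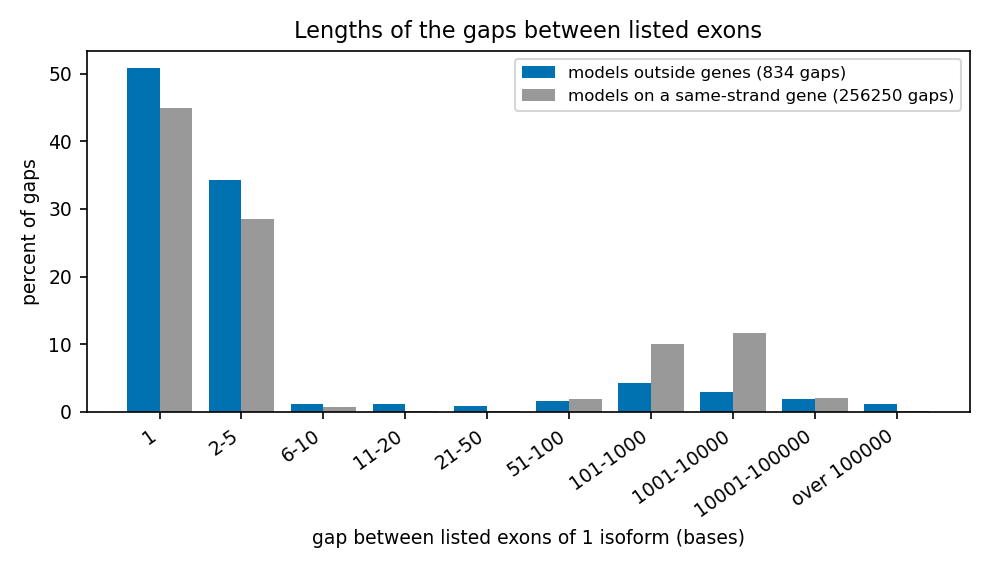
Lengths of the gaps between listed exons of 1 isoform, in bases, as a percent of all gaps, for models outside genes (834 gaps) and models on a same-strand gene (256250 gaps). Most gaps of both sets are 1 to 5 bases long, 85.1% and 73.4%.

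Spliced reads backed most but not all introns of 50 bases or more. Of 98 such introns, 69 were in the junction file, against 94.9% in models on genes, and 44 of the 69 had reads in both libraries. Their summed reads had a median of 17. All introns of a model were present in 36 of the 54 models (66.7%), against 63.1% of the models on genes with an intron. Those models hold more introns each, 65866 in 5217 models. No intron was present in 12 of the 54, against 36 of the 5217. None of the 98 introns is tagged as annotated.

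The model with most introns was CUFF.73742 on chromosome 7 (25712077 to 25730548 in mm9, minus strand), which converges on the end of Arhgef1, a gene for a guanine nucleotide exchange factor, 466 bases away. It stood at 0.76 and 0.67 RPKM in the first and second value. All 7 of its introns had spliced reads, 268 in the first and 409 in the second junction column, and 5 of them matched intron lengths of the protein-coding gene Gm4881. CUFF.74333 on chromosome 7 (31513349 to 31522831, plus strand) stood at 2.09 and 0.89 RPKM. It runs opposite Gapdhs, the sperm form of the glycolytic enzyme GAPDH, which stood at 0.003 and 0.02 RPKM. The model also overlaps Tmem147, again on the other strand. Its 3 introns of Tmem147os length held 856 and 540, 1118 and 558, and 610 and 337 reads. Its first 2 introns had no reads on its own strand but 1494 and 852, and 1198 and 852, on the opposite strand at the same positions. Tmem147os stood at 52.4 and 34.7 TPM in replicates 1 and 2. The first RPKM value and the first junction column were the higher ones, but the file does not tie the junction columns to replicates or to the RPKM values.

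CUFF.130008 on chromosome 12 (106691515 to 106733299, plus strand) stood at 2.61 and 2.29 RPKM, 68083 bases from the nearest annotated gene, Bdkrb2, a bradykinin receptor gene at 0.08 and 0.03 RPKM. Its intron of 33454 bases held 683 and 770 spliced reads and equals an intron length of D430019H16Rik, which was at 74.8 and 101 TPM in replicates 1 and 2. CUFF.85288 on chromosome 8 (34852884 to 34858510, minus strand) stood at 2.50 and 1.19 RPKM inside Gtf2e2, a subunit gene of the transcription factor TFIIE at 0.90 and 0.57 RPKM, without touching its exons. Its intron of 5072 bases held 797 and 402 reads and has the length of one in Smim18, a gene for a small membrane protein at 59.8 and 39.3 TPM. Both models were higher than the annotated mm9 genes beside or around them in both values.

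CUFF.169577 on chromosome 17 (95211331 to 95264362, minus strand) stood at 1.55 and 1.04 RPKM, and all 4 of its introns had reads, 205 and 219 in sum. The intron of 14295 bases shown above held 82 and 79 reads and that of 1391 bases 93 and 113. Gm1976 was at 18.1 and 18.8 TPM. CUFF.88455 on chromosome 8 (72065048 to 72109067, minus strand) stood at 0.92 and 0.79 RPKM with all 6 introns present, and its intron of 8829 bases held 8 and 14 reads. The values of each of these models lay within 1.5-fold of each other.

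Other models with well-covered introns had no match. CUFF.155263 on chromosome 16 (3624988 to 3633306, minus strand) stood at 2.07 and 1.00 RPKM, with 241 and 179 reads over an intron of 5306 bases. CUFF.184568 on chromosome X (93155782 to 93164165, minus strand) stood at 1.65 and 0.92 RPKM, with 325 and 262 reads over 3 introns, 3481 bases before the start of Las1l, a ribosome biogenesis gene at 6.39 and 4.94 RPKM. CUFF.163193 on chromosome 17 (6616943 to 6626354, plus strand) stood at only 0.79 and 0.61 RPKM but its 2 introns held 1053 and 952 reads. CUFF.184568 and CUFF.163193 were chosen after their values were seen.

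Some of the longest introns had no spliced read. Of the 26 introns over 10000 bases, 17 were in the junction file. Some of the 17 rested on few reads in 1 junction column, such as 4 and 0 for CUFF.33715 and 1 and 0 for CUFF.9446. Others, such as that of CUFF.130008, had reads in both columns. CUFF.90521 on chromosome 8 (100578486 to 100897620, minus strand) had the longest span, 319135 bases, at 2.95 and 2.20 RPKM, and none of its 3 introns had a spliced read. CUFF.69437 on chromosome 6 spans 194560 bases at 2.33 and 4.52 RPKM, again with no read over its intron. CUFF.46848 on chromosome 4 (121870863 to 122132760, minus strand) differed from these: its intron of 261632 bases held 2277 and 4082 reads, the most of any model outside genes, while the model stood at 1.82 and 2.11 RPKM. It spans the unnamed gene ENSMUSG00000084406 and lies among the gene models Gm12895 and Gm12896, and the handling of reads that fit several places is not stated in the labels.

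Antisense models lay mostly within introns. Of the 95, 81 were wholly inside the opposite gene, 7 crossed its start, 5 its end and 2 spanned it, and 76 touched no exon of that gene. A model opposite more than 1 gene, such as CUFF.33715 at Sprr2a2 and Sprr2a3, was assigned the gene it overlaps most. By that choice the 95 models lay opposite 79 different genes. The opposite gene had a biotype for 84 models and was protein-coding for 77 of them. Paired in the deposited order, both values were above those of the opposite gene in 73 models and below them in 20. It was not tested whether the first value is the same library for models and genes. Over the 95 models, with a gene counted once per model, the median level of the opposite gene was 0.45 RPKM. For 12 models the opposite gene was listed at 0 in both values, and 8 of these share 1 gene, ENSMUSG00000091795. The minimum of 0.5 RPKM applied to the models and not to the genes, so these counts are descriptive.

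**Figure D2:**
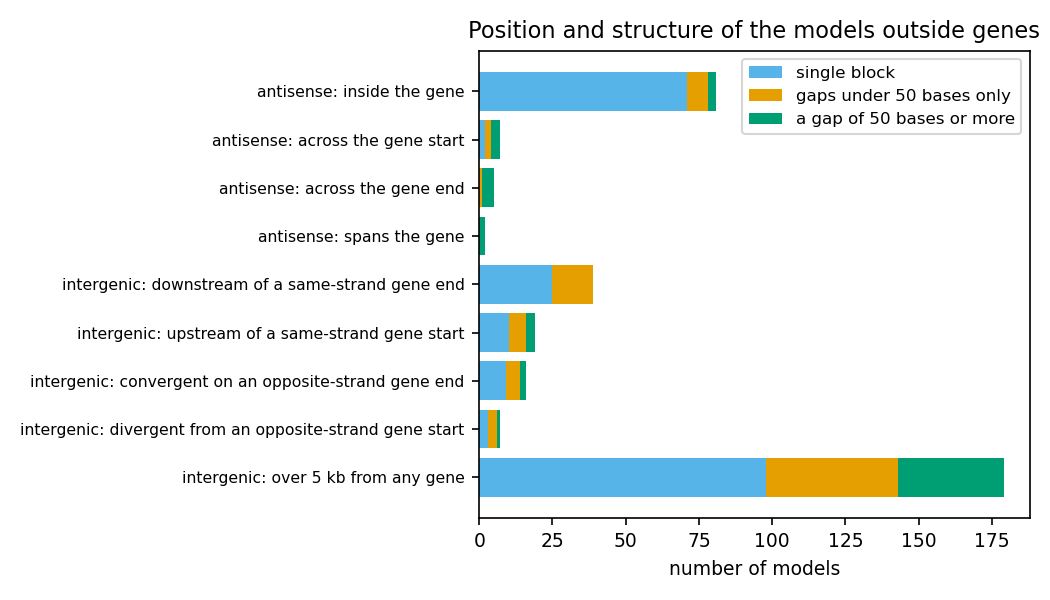
Number of models outside genes by position (rows) and structure (colours), antisense positions first. Single blocks inside a gene lead the antisense class, and models over 5 kb from any gene, 179 of 260, lead the intergenic class. No model downstream of a same-strand gene end had a gap of 50 bases or more.

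The highest antisense model, CUFF.157023, was a block of 188 bases on chromosome 16 (18533283 to 18533470, minus strand) inside an intron of Gnb1l, a gene for a WD-repeat protein related to G protein beta subunits. It stood at 138 and 409 RPKM while Gnb1l stood at 1.19 and 1.29. CUFF.134419 inside Jarid2, a cofactor gene of the Polycomb complex PRC2, stood at 42.2 and 163 RPKM over 584 bases on chromosome 13, with Jarid2 at 4.99 and 3.67. CUFF.15005 inside Arhgap21, a GTPase-activating protein gene, stood at 20.2 and 48.2 RPKM. All 3 were over 2-fold higher in the second value, and the values of each host gene lay within 1.5-fold of each other.

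CUFF.24704 inside Banf2 and CUFF.74298 inside Nphs1, the gene of the kidney slit protein nephrin, showed the other order, with 79.9 and 65.1 RPKM and 80.9 and 60.0 RPKM. Banf2 was listed at 0 in both values, and Nphs1 was at 0.23 and 0.13 RPKM. The values of both models lay within 1.5-fold of each other. CUFF.87893 inside Sh3rf1 followed at 25.6 and 12.3 RPKM.

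The introns of CUFF.63187 were found on the other strand. The model lies inside Copg2, a coatomer subunit gene in the imprinted domain of Mest, on chromosome 6 (30752812 to 30763754, plus strand), and stood at 5.47 and 11.5 RPKM, with Copg2 at 3.58 and 4.02. None of its 5 introns had a plus-strand read, and all 5 were present on the minus strand, the strand of Copg2, with 278 to 759 reads in a library. Together with the 2 introns of CUFF.74333, these were 7 of the 29 introns without own-strand reads. The strand of those 7 introns in the model and in the junction file differs.

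The genes of 7 lists tied to brain development were looked up beside the models. Within 10 kb, the 34 midbrain and hindbrain factors had 3 models, all at Lhx5, the 50 axon and adhesion genes had 2, at Auts2 and Tenm4, and the 33 imprinted genes had 1, at Kcnk9. The lists of 52 Hox genes, 46 forebrain factors, 28 proneural and Sox factors and 28 brain noncoding RNAs had none. The share of all annotated genes with a model within 10 kb was not counted. Presence or absence at a list is therefore not read as a trait of that list. The annotation held 233 of the 270 list genes, out of 37310 genes in all, but only 38 of the Hox genes and 14 of the brain noncoding RNAs under these symbols, so the other members of those lists could not be found near a model.

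Lhx5, a LIM-homeodomain factor of early forebrain and spinal cord neurons, was placed on the midbrain and hindbrain list and not on the forebrain list. At Lhx5, CUFF.58982 on chromosome 5 (120867369 to 120881393, minus strand) runs away from the gene start, 502 bases from it. It stood at 1.74 and 1.37 RPKM, with 3 isoforms that hold 8906 exonic bases within a span of 14025 and no gap of 50 bases or more inside an isoform, while Lhx5 stood at 2.69 and 1.06 RPKM. CUFF.58988 and CUFF.58989 lie within the same span and strand, at 0.88 and 0.68 RPKM and at 0.51 and 0.59 RPKM. The 3 models share their locus and are not independent.

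CUFF.78894 crosses the start of Tenm4, a teneurin gene for cell adhesion in axon guidance, from the opposite strand. It stood at 2.18 and 1.47 RPKM and Tenm4 at 3.28 and 3.11, and its intron of 115996 bases had 1 read. CUFF.66600, a block of 340 bases inside Auts2, a neurodevelopmental gene, stood at 0.73 and 0.65 RPKM against 11.6 and 7.5 for Auts2. CUFF.152215 lies 6756 bases past the end of Kcnk9, an imprinted potassium channel gene, on its strand, and stood at 0.68 and 0.89 RPKM while Kcnk9 stood at 1.74 and 0.80. At Tenm4 and Auts2 both values of the model were below both values of the gene. At Kcnk9, in the deposited order, the model was below the gene in the first value and above it in the second.

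A model on the strand of a neuronal gene and past its end was also found at Elavl2. CUFF.43849 on chromosome 4 (90876279 to 90911835, minus strand) lies 5619 bases past the end of Elavl2, a neuronal RNA-binding protein gene, and stood at 0.80 and 0.53 RPKM against 8.20 and 8.27 for Elavl2. Its 2 introns held 20 and 16 reads in sum. The model was below its gene in both values.

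Within 5 kb of a gene, 81 intergenic models fell into 4 positions. They were 39 past the end of a same-strand gene, 19 before the start of a same-strand gene, 16 converging on the end of an opposite-strand gene and 7 diverging from the start of one. The other 179 lay over 5 kb from any gene, 71 of them over 50000 bases and the farthest 740768 bases away.

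The 39 models past a gene end had no introns and lay close to the gene, at a median of 659 bases and within 1000 bases in 26. Of the 34 whose gene has a biotype in GENCODE vM21, 22 (64.7%) lay past a pseudogene, against 15.3% of the 32620 Ensembl 65 genes with a biotype. Among all intergenic models with such a biotype, these included, the nearest gene was a pseudogene in 20.6%. Among antisense models the opposite gene was one in 5.95%. The genes were not matched for level, and no test was made. A processed pseudogene is a reverse-transcribed copy of a messenger RNA. CUFF.176762 lies 84 bases past Hmgb1-ps4 and stood at 17.7 and 7.66 RPKM against 0.91 and 1.19. CUFF.53843 lies 152 bases past Gm7931 and stood at 17.4 and 7.70 RPKM against 0.44 and 0.77. In both, the model exceeded its neighbour in both values.

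Other models past pseudogenes were lower than the gene. CUFF.123330 lies 196 bases past Pgk1-rs7 at 3.28 and 1.84 RPKM, and CUFF.31353 lies 191 bases past Gm5537 at 3.95 and 2.88 RPKM. Pgk1-rs7 and Gm5537 were at 18.3 and 19.4 RPKM each, on chromosomes 12 and 3, and whether reads were shared between them was not tested. Paired in the deposited order, 14 of the 39 models were above their gene in both values and 16 below it in both. Models past a protein-coding end included CUFF.108558, 455 bases past Elane, a neutrophil elastase gene at 0.04 and 0.03 RPKM, with 29.6 and 27.5 RPKM over 232 bases. CUFF.108558, CUFF.53843 and the models past Pgk1-rs7 and Gm5537 were chosen after their values were seen.

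Upstream and divergent models were fewer. CUFF.52936 on chromosome 5 (30555426 to 30558978, minus strand) starts 143 bases from the start of Selenoi, whose promoter is shown above, and runs away from it. It stood at 0.54 and 0.51 RPKM, just inside the minimum, and Selenoi at 3.07 and 3.34. Its intron of 2448 bases held 60 and 52 reads, and its intron of 482 bases had 1 read. CUFF.72070 on chromosome 6 (145814226 to 145881612, minus strand) lies across the start of Sspn, the sarcospan gene, and 148 bases from the start of Bhlhe41, a circadian transcriptional repressor gene on its own strand. It stood at 6.13 and 12.6 RPKM, and its intron of 67059 bases had no spliced read. CUFF.104949 and CUFF.104950 lie before the start of 9330159F19Rik at 1.08 and 1.15 RPKM and at 1.46 and 1.23 RPKM, below the gene's 4.81 and 4.86. CUFF.52936, CUFF.104949 and CUFF.104950 were named after their values were seen.

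Joining models within 10 kb on the same strand gave 322 loci, of which 303 held a single model. A stretch of chromosome 17 from 6309200 to 7146473, picked after the values were seen and with ends set by its models, held 16 of the 355 models (4.51%), 9 antisense and 7 intergenic, among 34 models at the minimum there. Genes for the dynein light chain Dynlt1 and unnamed copies lie there. The mean levels ran from 0.70 to 14.9 RPKM, and 3 of the 16 were higher in the second value, as were 101 of all 355 and 995 of all 7207 models at the minimum. Of the antisense models, 8 lie opposite ENSMUSG00000091795, which was listed at 0 in both values. CUFF.163163 stood at 16.7 and 13.1 RPKM, CUFF.163156 at 17 and 10.5 and CUFF.163164 at 11.2 and 8.24. On the plus strand of chromosome 7, CUFF.74333 and 4 further blocks followed each other through Gapdhs, at mean levels of 0.74 to 1.88 RPKM.

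**Figure D3:**
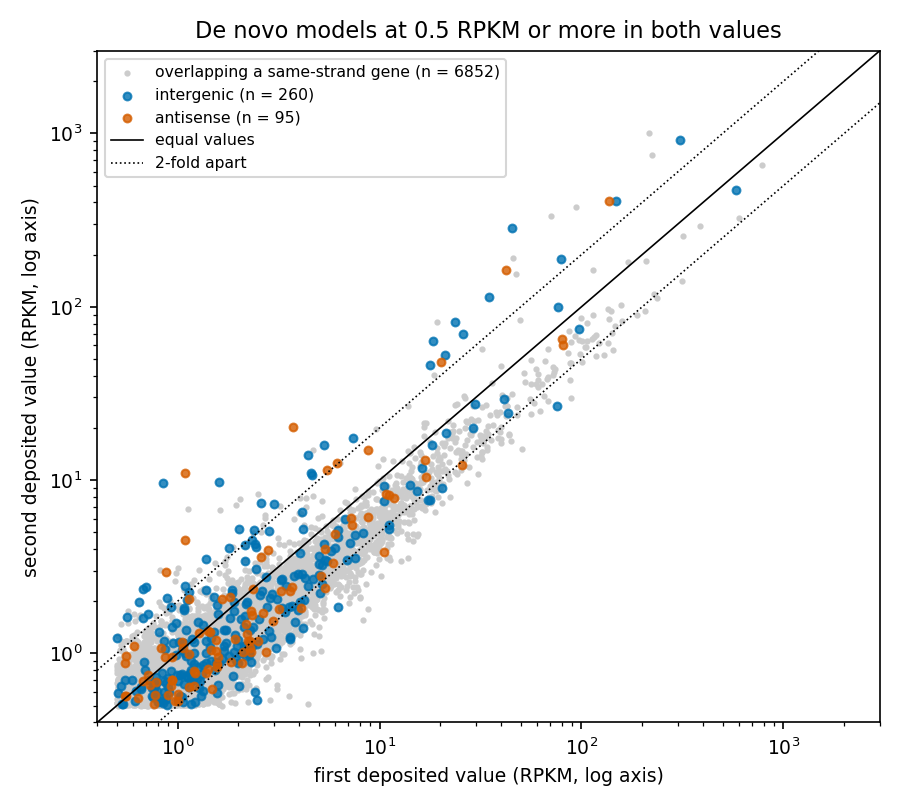
First against second deposited RPKM value on log axes for the 260 intergenic and 95 antisense models and, in grey, the 6852 models on a same-strand gene. The solid line marks equal values and the dotted lines a 2-fold difference. Points above the upper dotted line include 6 of the 7 models with a mean over 100 RPKM.

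The median level was 1.87 RPKM in the first and 1.36 RPKM in the second value, against 1.59 and 1.09 RPKM in models on genes. A mean below 2 RPKM was found in 209 models and below 1 RPKM in 92, while 38 (10.7%) reached 10 RPKM, against 4.87% of models on genes. The 5 highest carried 48.7% of the summed mean RPKM of all 355. Just inside the minimum, CUFF.120209 stood at 0.50 and 1.22 RPKM, CUFF.55543 at 0.88 and 0.51 and CUFF.128202 at 1.17 and 0.51. Just outside it, CUFF.73852 stood at 0.80 and 0.496 RPKM, CUFF.135350 at 0.71 and 0.49 and CUFF.6947 at 1.02 and 0.49.

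The values of the 2 libraries were 2-fold or more apart in 96 of the 355 models, 41 higher in the second and 55 higher in the first value. Over all 7207 models at the minimum, 15.9% were 2-fold or more apart, 1.36% higher in the second and 14.6% higher in the first value. The median log2 ratio of second to first was -0.42 over the models outside genes and -0.55 over all 7207, so the first value was the higher one in general. Relative to that median, 66 of the 355 were 2-fold or more higher in the second value and 6 in the first, where 4.58% and 1.28% of all 7207 models were. The share of higher-in-second among the 2-fold models thus was 42.7% as deposited and 91.7% relative to the median. The rule used both values, so nothing further is read from these counts.

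Large differences toward the second value were most frequent among the highest and the shortest models. Of the 38 models at 10 RPKM or more, 16 were 2-fold or more higher in the second value and 5 in the first. Among the other 317, 25 and 50 were. Of the 334 models on genes at 10 RPKM or more, 10 (2.99%) were 2-fold or more higher in the second value and 81 (24.3%) in the first. Of the 20 highest, 12 were 2-fold higher in the second value, and 19 had no intron. The group of 38 is defined on the same values, and these counts have no test.

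**Figure D4:**
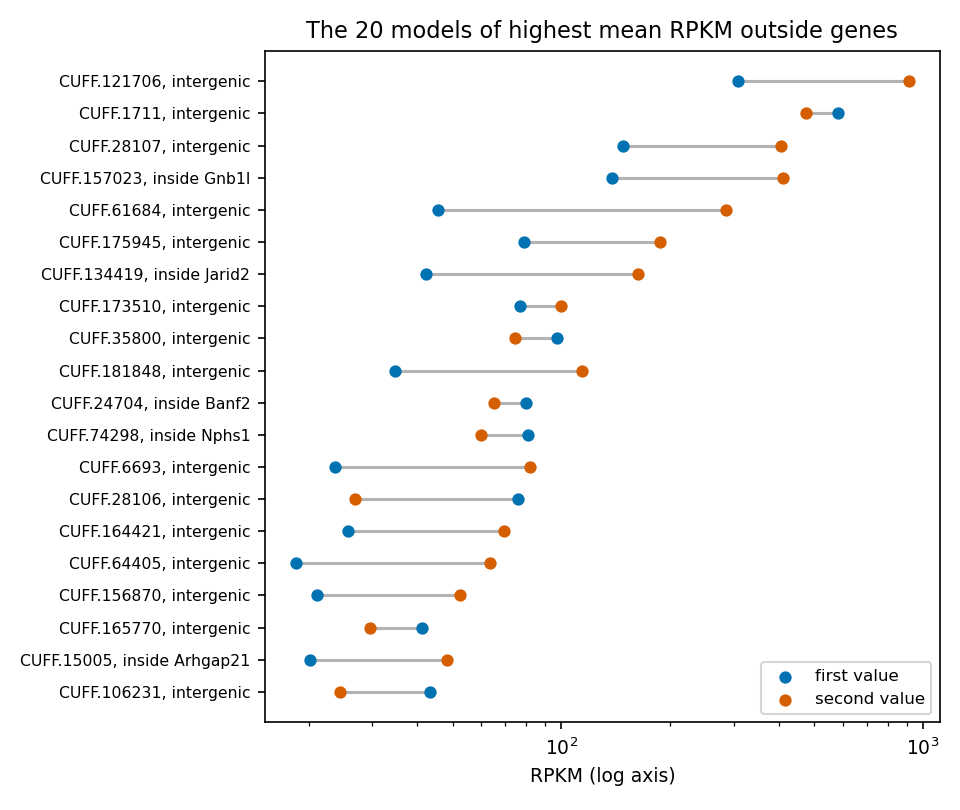
First and second RPKM value, on a log axis, of the 20 models of highest mean level, with the gene named for those inside one. The second value lies to the right in 13 of the 20, and CUFF.1711 is the exception among the 5 highest.

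CUFF.121706 was the highest, a block of 545 bases on chromosome 11 (108872954 to 108873498, minus strand), at 307 and 915 RPKM. Its nearest gene, the pseudogene Gm11668, was at 0 and 0.003 RPKM. CUFF.28107 on chromosome 3 (5860319 to 5860890, plus strand) stood at 148 and 405 RPKM, and CUFF.61684 on chromosome 6 (3150768 to 3151743, plus strand) at 45.5 and 285 RPKM, 284080 and 170514 bases from the nearest gene. Contigs covered 89.5% to 92.7% of these 3. CUFF.1711 on chromosome 1 (24621723 to 24623089, minus strand) was the exception in direction, with 581 and 475 RPKM over 1367 bases. It lies 96 bases before ENSMUSG00000090378, which was nearly as high at 517 and 477 RPKM. What these blocks encode was not analysed here, since a genome of the files' build was not used.

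Only 1 model of the 20 highest had an intron. CUFF.64405 on chromosome 6, 266822 bases from Cntnap2, a neuronal adhesion gene, stood at 18.4 and 63.5 RPKM over 311 bases. Its intron of 91 bases had no read in the first junction column and 7 in the second. The largest ratios at a mean of 1 RPKM or more were those of CUFF.9144 (0.84 and 9.68 RPKM), CUFF.25322 inside Mylk2 (1.09 and 11), CUFF.61684, CUFF.89958 (1.60 and 9.71) and CUFF.135843 inside Ell2 (3.74 and 20.3). In the other direction the largest were CUFF.182586 (2.46 and 0.54 RPKM), CUFF.169948 (2.42 and 0.60), CUFF.38373 (6.25 and 1.86), CUFF.27333 (2.02 and 0.65) and CUFF.172927 (3.61 and 1.21).

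Contigs, the stretches of continuous read cover that the authors deposited separately, covered a median of 95.3% of a model's exonic bases, and 219 of 355 models (61.7%) reached 90%. In models on genes 92.7% did. A contig was missing on the strand of 7 models, among them CUFF.175945 on chromosome 18, at 79.0 and 187 RPKM, and CUFF.169577. All 18 models of 110 bases or fewer were below 90%, at a median of 21.8%. The labelled read length is 101 bases, and 9 models span 101 bases exactly. Of the 18, 9 were 2-fold or more higher in the second value and 1 in the first. CUFF.135843, at 101 bases with 21.8% covered, CUFF.27212, at 102 bases with 18.6% covered and 5.30 and 16 RPKM, and CUFF.90527, at 101 bases with 21.8% covered and 4.44 and 14 RPKM, are examples, and CUFF.27212 and CUFF.90527 were named after their values were seen. The part of read length in these models was not tested.

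**Figure D5:**
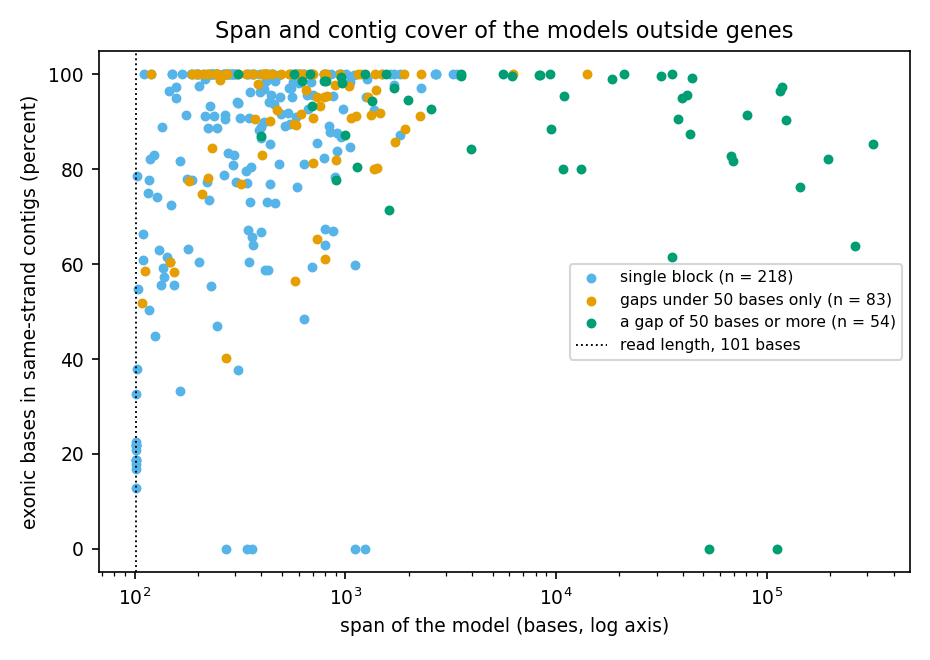
Span of each model outside genes in bases (log axis) against the percent of its exonic bases in same-strand contigs, coloured by structure. The models at the labelled read length of 101 bases, marked by the dotted line, lie at low cover, while most longer models lie near 100%.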

How the data were processed

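The deposited mm9 files hold de novo transcript models made with Cufflinks, each with 2 RPKM values that the authors computed. Ensembl 65 genes have 2 such values each, deposited separately. Junction read counts and a reproducibility fraction, and contigs with a signal level and the same kind of fraction, were deposited by the authors for the same libraries. The mm10 gene tables hold expected counts and TPM, estimated by the authors per replicate. Aligner and treatment of reads with several places are not given in the sources used here.

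Models at 0.5 RPKM or more in both values were kept where no Ensembl 65 gene interval of the same strand overlapped. Every Ensembl 65 gene stood on 2 lines, and 1 was kept, leaving 37310 of 74620. All models have a strand. Those overlapping an opposite-strand gene by 1 base or more are antisense, the others intergenic. Gaps of 50 bases or more between merged exons of an isoform count as introns and were looked up by exact position and strand in the junction file. Distances are to gene intervals. Gene symbols and biotypes came from GENCODE vM21 by identifier, with 32620 of 37310 matched. Promoters are RefSeq windows on GRCm38.p6. An intron match needed 2 shared lengths, or 1 of 1000 bases or more, and 80% of Ensembl 65 genes within 500000 bases shared. This match and the minimum intron length were chosen after the data were seen. The models and lists were chosen with earlier results of these data known.

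Named models are, by mean RPKM, the 15 highest of each class with 2 or more listed exons, the 10 highest of each class with 1 exon, the 10 with most exons, the 5 longest, the 5 largest ratios each way at a mean of 1 RPKM or more, those at the minimum and the 3 highest within 10 kb of a gene of each of 7 lists. The text describes a part of these 75, and the results of some items are not reported here. Models outside this rule but described for their introns or position (CUFF.73742, CUFF.88455, CUFF.184568, CUFF.163193, CUFF.52936 and others said to be so beside them) were named after their values were seen. No sequence of a model is shown, because a genome of the mm9 build was not used here. No test was made, as the values chose the models and each value is 1 library. Interval steps were tested on simulated data. Scripts ran in Python 3.11.15 with pandas 2.3.3, numpy 2.4.6 and scipy 1.17.1.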

Additional observations from a re-analysis of the deposited data

How the results depend on the processing

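No paired analysis was possible because both libraries belong to 1 group and no groups can be paired. The number of models followed the minimum: 215 at 1 RPKM, 641 at 0.25 RPKM and 43629 above 0, with median levels of 2.95, 0.75 and 0.017 RPKM, by construction of the minimum. With only 1 of the values held to the minimum, there were 402 to 519 models and the median level was 1.04 to 1.44 RPKM. At values above 0, 13.4% were antisense and 23.1% had 2 or more listed exons. Models 2-fold or more apart numbered 161 at 0.25 RPKM, 17261 above 0, and 41 with a pseudocount of 1 RPKM. Counting only overlap of exons with exons gave 1404 models, since 1049 lay in introns of same-strand genes. A window of 1 kb left 37 intergenic models near a gene, 26 of them past a same-strand end. Every intron was present in 27.8% of the spliced models with junctions of 10 or more reads and in 31.5% with a reproducibility value of 0.1 or less, against 66.7%. The other 38 of 58 recomputed values stayed within their limits, and no value changed sign. All 355 models passed an iIDR of 0.1, and no model lacked a strand, so that alternative gave no value. Minimum intron lengths of 20 and 70 bases, the removal of spans of 110 bases or fewer and the ratio relative to the median were chosen after seeing the data.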

Other observations

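Inside introns of genes on their own strand, outside the set described, a further 1049 models at the same minimum touched no exon of the gene, at a median mean level of 0.92 RPKM. The highest of those named here were higher in the second value. CUFF.159996, in Cmss1 on chromosome 16 (57391399 to 57391853), stood at 223 and 752 RPKM and CUFF.167969, in ENSMUSG00000085916 on chromosome 17 (71312823 to 71313309), at 71.1 and 335 RPKM. CUFF.37251 in Ddah1 was higher in the first value, at 67.6 and 38.4 RPKM. These 3 were named after their values were seen. Of the 1049, 36 had an intron of 50 bases or more.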
